A study of Mus musculus with 4 samples.

Results

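Airway surface liquid is set by a small group of membrane proteins, and 10 genes of this group were followed across the cell classes of the mouse trachea. They were Scnn1a, Scnn1b and Scnn1g, Cftr, Ano1 and Slc26a9, Slc12a2, and Aqp3, Aqp4 and Aqp5. They were taken by symbol from the deposited feature table, which listed 22583 features, and all 10 were found there, each with UMIs. Single-cell RNA sequencing had been done on tracheas of 129S6/SvEvTac mice aged 5 to 8 months. The groups were bgh mice with a mutation in Spef2 (5 tracheas), Cfap54gt/gt mice carrying a gene-trap insertion of Cfap54 (6 tracheas), nm1054 mice lacking Cfap221 (6 tracheas) and wild-type mice (6 tracheas), with 1 library for each group, made from epithelial cells freed with pronase, plated on dishes to take fibroblasts away and cleared of dead cells. No source used here tied a library number to a genotype, so values are given for libraries 1 to 4 and no comparison of genotypes was made. With 1 library per group there was no replicate of a genotype and no test of genotypes. Classes of cells were compared within the 4 libraries, and the intervals below cover counting error only.

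The epithelial sodium channel, built from the alpha, beta and gamma subunits encoded by Scnn1a, Scnn1b and Scnn1g, draws sodium and with it water out of the airway lumen. Chloride leaves the epithelium through CFTR, the channel mutated in cystic fibrosis, through the calcium-activated channel encoded by Ano1, and through SLC26A9, an anion transporter with channel activity. SLC12A2, the sodium-potassium-chloride cotransporter of the basolateral membrane, loads cells with chloride for secretion, and aquaporins let water follow the salt. Ionocytes are rare airway cells that depend on the transcription factor Foxi1 and are known for high Cftr in mouse and human.

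Promoters from RefSeq (GRCm38.p6) were taken here for 7 of the 10 genes. The 250 bases before the start are shown for those of them whose levels differed most between classes. These were Cftr and Scnn1b, high in ionocyte-like cells, Slc26a9, high in neuroendocrine-like cells, and Aqp3 and Aqp5, high in basal-like or hillock-like cells. Scnn1a, Slc12a2 and Aqp4 are named only. Each is written 5′ to 3′ along the gene's strand, and capitals mark matches to a motif on either strand. The GC box was searched as GGGCGG, a binding motif of Sp factors. The TATA box, bound by the TATA-binding protein, was searched as TATAAA. The forkhead motif, named for the family that Foxi1 belongs to, was searched as GTAAACA. The E-box, a motif of basic helix-loop-helix factors, was searched as CACGTG.
Cftr, chr6:18170437-18170686, plus strand: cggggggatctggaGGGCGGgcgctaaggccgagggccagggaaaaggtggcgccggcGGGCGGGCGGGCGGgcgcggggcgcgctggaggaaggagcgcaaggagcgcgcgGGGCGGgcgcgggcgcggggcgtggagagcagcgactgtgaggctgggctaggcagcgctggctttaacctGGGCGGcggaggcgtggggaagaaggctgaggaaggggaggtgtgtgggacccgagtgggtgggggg
Scnn1b, chr7:121864788-121865037, plus strand: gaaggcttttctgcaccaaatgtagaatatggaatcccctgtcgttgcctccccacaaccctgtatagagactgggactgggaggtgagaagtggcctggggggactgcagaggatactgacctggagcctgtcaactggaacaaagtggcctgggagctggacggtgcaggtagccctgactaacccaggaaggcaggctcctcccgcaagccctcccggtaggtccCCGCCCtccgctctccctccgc
Slc26a9, chr1:131743772-131744021, plus strand: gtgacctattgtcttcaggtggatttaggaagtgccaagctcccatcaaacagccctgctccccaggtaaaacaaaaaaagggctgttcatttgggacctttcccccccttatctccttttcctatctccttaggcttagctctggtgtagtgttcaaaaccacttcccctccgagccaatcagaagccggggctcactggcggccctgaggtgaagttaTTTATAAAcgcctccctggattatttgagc
Aqp3, chr4:41098184-41098433, minus strand: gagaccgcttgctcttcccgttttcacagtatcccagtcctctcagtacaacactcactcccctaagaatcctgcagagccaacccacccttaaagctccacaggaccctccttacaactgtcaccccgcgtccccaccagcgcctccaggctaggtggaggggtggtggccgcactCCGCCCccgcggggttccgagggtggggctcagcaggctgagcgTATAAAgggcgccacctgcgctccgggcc
Aqp5, chr15:99590778-99591027, plus strand: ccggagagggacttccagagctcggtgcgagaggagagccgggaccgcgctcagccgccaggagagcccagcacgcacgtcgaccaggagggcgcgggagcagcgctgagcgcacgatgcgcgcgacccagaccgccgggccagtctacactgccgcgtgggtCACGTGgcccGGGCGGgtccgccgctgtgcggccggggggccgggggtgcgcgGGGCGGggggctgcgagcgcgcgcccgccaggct
The Cftr and Aqp5 windows stood out in base composition. Cftr had 76.4% G and C with 30 CpG dinucleotides, and Aqp5 had 78.4% with 38, against medians of 52.4% and 6 over 32851 promoters of the same length. Cftr held 6 GC boxes, 3 of them overlapping in 1 run, and Aqp5 held 2. A GC box was present in 32.7% of all promoters. Slc26a9 held a TATA box read on both strands at 1 place, and Aqp3 held 1; 12.4% of promoters had such letters. The E-box of Aqp5 was found in 6.02% of promoters. The forkhead letters, in 3.17% of promoters, were in none of these 5 windows, which says only that these letters are not there.

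The libraries held 4202 to 7360 barcodes and 39658153 to 53491773 UMIs (unique molecular identifiers, each a count of 1 captured transcript end). After filtering and doublet removal, 19471 cells were used. Library 1 gave 253 of the 343 cells of a shallow unnamed cluster, and 52 barcode sequences occurred in more than 1 library. Clusters were named from marker lists, with the 10 genes themselves kept out of the clustering. Secretory-like cells numbered 6117, basal-like 5050 and ciliated-like 4770, with median depths of 11065, 4053 and 2539.5 UMIs. Small classes were tuft-like (195 cells), hillock-like (170), proliferating-like (96), neuroendocrine-like (68) and ionocyte-like (41). A further 1821 cells carried ciliated and secretory markers together. Another 444 cells of rare clusters had at least 5% of their UMIs from secretory markers, at a median of 17568 UMIs, and were kept apart from their classes. Levels are UMIs summed over the cells of a class and scaled to CPM, that is to 1000000 UMIs per class. Hillock-like cells were not subject to the 5% limit on secretory markers. Those markers summed to 66930 CPM in them (36700 to 96970 over libraries), with Scgb1a1 at 18.9% of its secretory-like level. The median hillock-like cell had 2.1% of its UMIs from secretory markers. The part of secretory RNA in the hillock-like levels below was not tested.

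**Figure D1:**
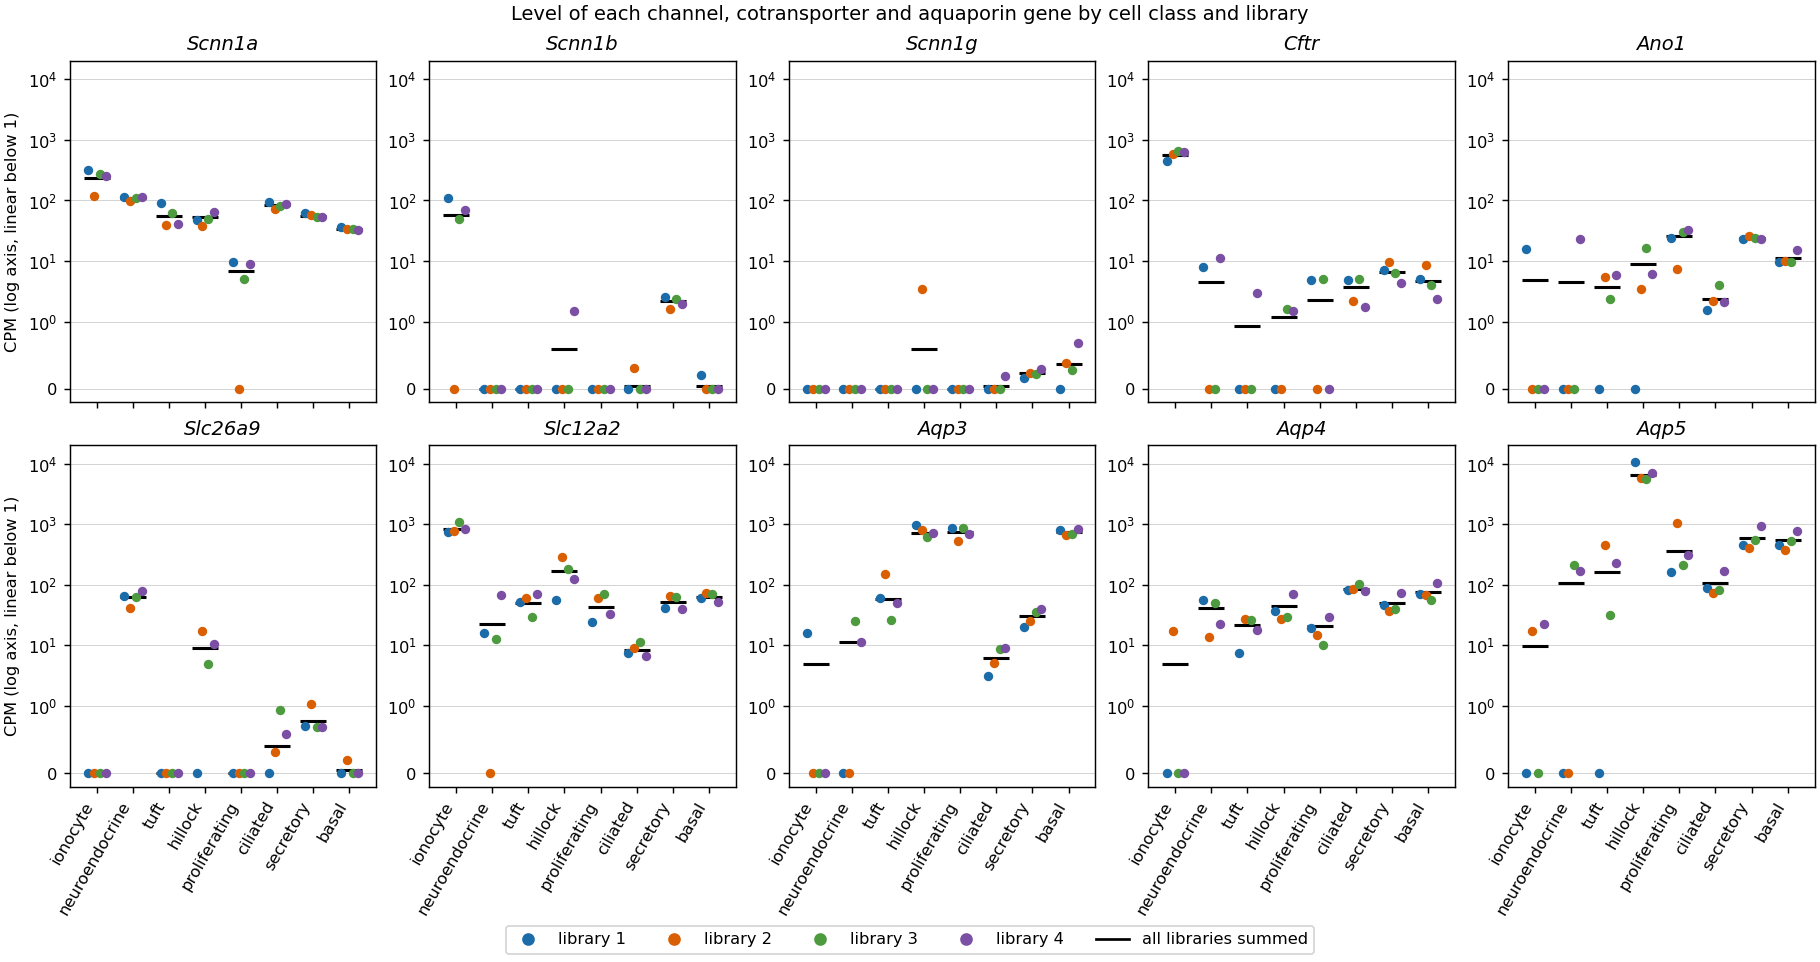
Level (CPM, log axis, linear below 1) of the 10 genes in 8 epithelial classes; points are libraries 1 to 4 and the line is the level over all libraries summed. Cftr and Slc12a2 stand highest in ionocyte-like cells, Slc26a9 in neuroendocrine-like cells and Aqp5 in hillock-like cells, in every library.

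The ionocyte-like class was named from a list of 11 ionocyte markers, so their presence is no separate check of the label. All 11 were detected in its 41 cells, though Atp6v1g3 had 1 UMI and Foxi2 had 4 UMIs in 2 cells. Stap1 was in 39 cells at 1430 CPM. Foxi1, the defining transcription factor, was in 6 at 82.4 CPM, against 0.0159 CPM in the other named epithelial cells. Stap1 was also found in macrophage-like cells, at 439 CPM. Markers of T cells, fibroblasts and neuroendocrine cells were at 0 in it. Basal markers summed to 174.5 CPM (3 of 9 detected, 75.5 to 296 over libraries), ciliated markers to 77.6 CPM (4 of 9 detected) and hillock markers to 77.6 CPM (5 of 8 detected). The summed secretory markers, 9 of 9 detected, were at 2904 CPM (1995 to 3734 over libraries), against 392900 CPM in secretory-like cells. The class was small in each library, with 9, 11, 12 and 9 cells and 206252 UMIs in all, so that 3 UMIs amounted to 14.5 CPM.

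Among the sodium channel subunits, Scnn1a, the alpha subunit that the channel cannot do without, was found in every epithelial class. Ionocyte-like cells had 315, 118, 277 and 250.4 CPM in libraries 1 to 4, neuroendocrine-like cells 112, 97.2, 108 and 114 CPM, and ciliated-like cells 93.3, 73.3, 79.7 and 86.5 CPM. The library values of these 3 classes did not overlap. Poisson intervals did: over summed libraries they were 80.05 to 144 CPM in neuroendocrine-like and 81.3 to 89.5 CPM in ciliated-like cells. The ionocyte-like interval was 176 to 314 CPM over summed libraries and 47.6 to 244 CPM in library 2. Next came secretory-like cells at 61.8, 57.3, 52.6 and 54.0 CPM. Tuft-like cells (38.7 to 90.4 CPM over libraries) and hillock-like cells (38.0 to 63.6) overlapped with secretory-like cells, and tuft-like cells with ciliated-like cells too. Below them came basal-like cells at 36.8, 34.3, 33.5 and 32.9 CPM. Proliferating-like cells were lowest, with 6 UMIs or 6.82 CPM in all and 0 in library 2. The subunit was spread over the epithelium, with its lowest level in the proliferating-like class. That class left out 53 of the 149 cells of its cluster for their secretory RNA. Scnn1a was at 44.8 CPM (31.7 to 61.5) in those 53 cells, and the part of this choice in the low level was not tested. Each of the 3 large classes kept its place in all 4 libraries on the CPM scale. The order of ciliated-like and secretory-like cells depends on that scale: with TMM scaling (trimmed mean of M-values, which sets aside the few genes that take much of a library), the ciliated-like level was the lower one, at a log2 fold change of -0.32. The neuroendocrine-like level was then at 0.01 against the other named epithelial cells, and ciliated markers in that class summed to 3033 CPM (1918 to 4236 over libraries), against 9450 CPM in ciliated-like cells. Their part in its Scnn1a level was not tested.

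The beta subunit, Scnn1b, was much scarcer and was carried by few classes. Ionocyte-like cells had 12 UMIs in 8 of 41 cells, which is 58.2 CPM (Poisson interval 30.1 to 102), with 110 CPM in library 1, 50.3 in library 3 and 68.3 in library 4. Library 2 had 0 UMIs in its 11 cells (Poisson interval 0 to 62.4 CPM). Ciliated-like cells had 1 UMI in all, secretory-like cells 1.63 to 2.58 CPM over libraries (167 UMIs in 143 cells), and basal-like cells 1 UMI. The secretory-like cells differed among themselves. Clusters led by S100g and Ces1f, by Hspa1a and Hspa1b, and by the goblet genes Tff1 and Tff2 had 3.87, 2.58 and 0.723 CPM, and the goblet-led cluster was lowest in all 4 libraries. Of all 245 Scnn1b UMIs, secretory-like cells held 68.2%, cells with ciliated and secretory markers together 18.4% and ionocyte-like cells 4.90%.

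The gamma subunit, Scnn1g, was close to the detection limit. Only 39 UMIs in 38 cells were counted, 18 in secretory-like, 9 in basal-like and 1 each in ciliated-like and hillock-like cells. Ionocyte-like cells had 0, which at their depth allowed up to 14.5 CPM by the 3-count limit. Of the 9 basal-like UMIs, 8 lay in the cluster led by Apoe and Dapl1, a resting-type basal cluster, at 1.25 CPM (0.541 to 2.47). Scnn1g and Scnn1b lie next to each other on chromosome 7 with no protein-coding gene between them. Cells with UMIs of Scnn1a and Scnn1b together numbered 126, and cells with all 3 subunits numbered 5 of 19471, of which 3 were secretory-like. At this depth a cell without a UMI of a subunit cannot be called free of it.

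Cftr was carried at its highest level by the ionocyte-like cells, in every library. They had 441, 575, 654 and 638 CPM in libraries 1 to 4, from 28, 34, 26 and 28 UMIs, while ciliated-like cells had 4.89, 2.22, 5.13 and 1.75 CPM, secretory-like cells 7.05, 9.73, 6.35 and 4.37 CPM, and basal-like cells 5.00, 8.61, 4.05 and 2.32 CPM. Over all libraries the class reached 562 CPM (465 to 675), against 5.69 CPM in the other named epithelial cells, an 84.3-fold ratio once 1 CPM was added to each side. Hillock-like cells had 2 UMIs, tuft-like 1, neuroendocrine-like 2 and proliferating-like 2, and T-like and macrophage-like cells had 0, which allowed up to 39.8 and 37.6 CPM. Below the ionocyte-like cells, each class in the order of levels overlapped with the next over libraries.

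Per cell, 36 of the 41 ionocyte-like cells had a Cftr UMI, with a median of 3 and at most 8, and 21 had 3 or more. Of 6117 secretory-like cells, 438 had a UMI (7.16%, exact interval 6.53 to 7.83%), 382 of them 1, and 12 had 3 or more. A class with little Cftr, the tuft-like cells, had 1 cell in 195 (0.513%) at a median of 4038 UMIs, against 11065 UMIs for secretory-like cells. When every cell was thinned to 1000 UMIs, the shares with a Cftr UMI were 43.9% in ionocyte-like, 0.120% in ciliated-like, 0.492% in secretory-like cells and 0.479% for the basal-like class, and none of the tuft-like cells had one. This left out 592 shallower ciliated-like, 21 secretory-like and 34 basal-like cells.

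The most Cftr UMIs were held by secretory-like cells, which were many and deep. Ionocyte-like cells were 0.211% of the cells and held 10.2% of the 1137 Cftr UMIs (8.50 to 12.1). By library the share was 9.18, 9.74, 8.67 and 15.3%. Secretory-like cells held 45.8%, cells with ciliated and secretory markers together 21.3%, basal-like cells 10.1% and ciliated-like cells 6.42%. The ionocyte share was 21.6% (13.9 to 31.2) when every cell counted for 1000 UMIs. The 110 cells with UMIs of at least 3 ionocyte markers, taken in place of the cluster, held 18.7%. Of these, 69 lay outside the ionocyte-like class, at a median of 19551 UMIs with 24.0% from secretory markers.

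**Figure D2:**
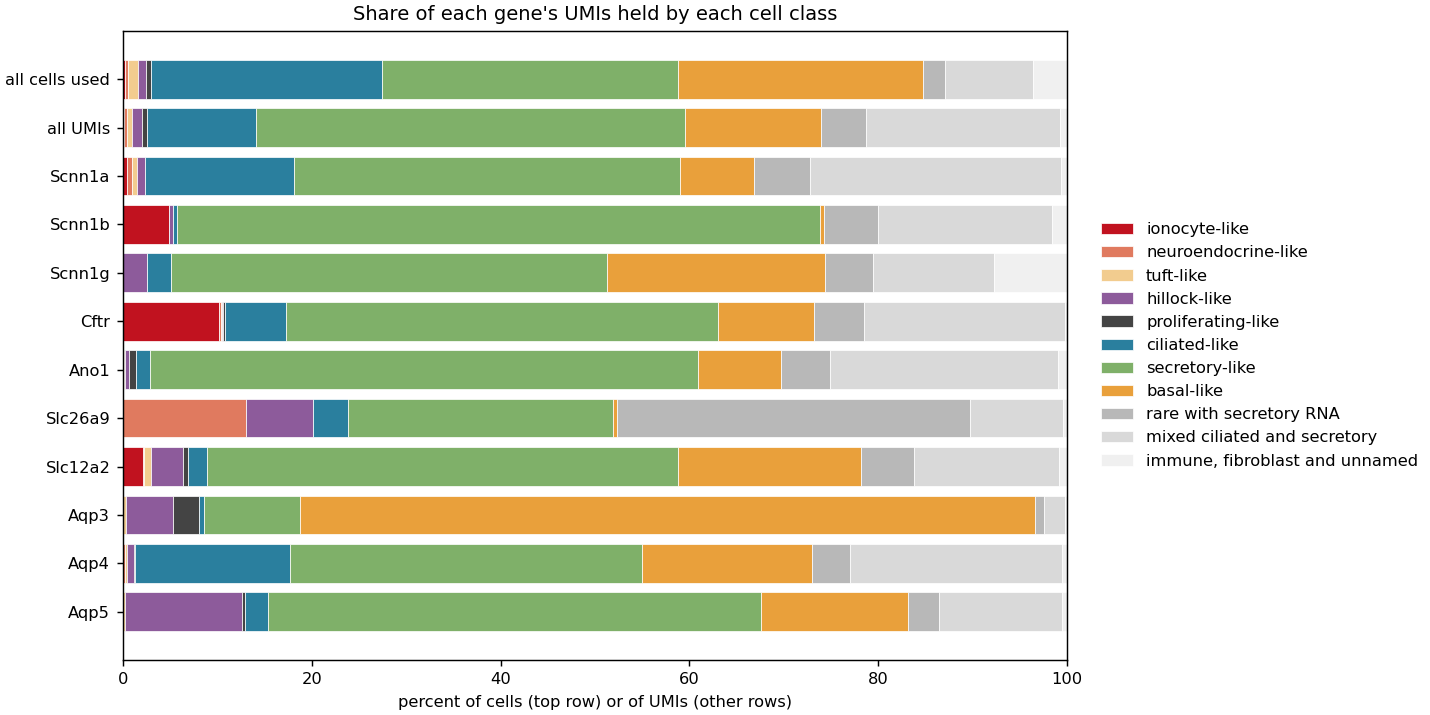
Share in percent of all used cells (top row), of all UMIs (second row) and of the UMIs of each gene (other rows) by cell class; colours are classes, and grey tones are cells outside the named epithelial classes. Ionocyte-like cells are 0.211% of cells and hold 10.2% of Cftr UMIs, basal-like cells hold 77.9% of Aqp3 UMIs and hillock-like cells 12.3% of Aqp5 UMIs.

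The low Cftr level of the large classes was set beside the 11 ionocyte markers, each as a percentage of its own ionocyte-like level. In secretory-like cells Cftr was at 1.19%, above 8 of the markers and below 3, with a median of 0.240% and a range of 0 to 7.37%. Stap1, Coch and Atp6v0d2 were at 0.175, 0.240 and 0.137% there, and Asgr1 was at 3.14%. In basal-like cells Cftr was at 0.834%, above 9 markers and below 2 (median 0.0998%), and in ciliated-like cells at 0.658%, above 8 and below 3 (median 0.0716%), Asgr1 among the higher ones at 5.91%. The markers did not share 1 ratio, and the part of free RNA in these Cftr levels was not tested. The ciliated-like value of Cftr came from 1 cluster: 72 of its 73 UMIs lay in the deep cluster led by Tm4sf1 (1362 cells, median 7586 UMIs, 5.99 CPM), which also had the highest secretory marker level of the 4 ciliated clusters, 36080 CPM. The clusters of 1541 and 1561 cells had 0 and 1 Cftr UMI. With coarser clusters (Leiden resolution 0.5) Cftr was called lower in ciliated-like than in secretory-like cells by the rule given below, at a log2 ratio of -2.77. The part of secretory RNA in the value of the deep cluster was not tested.

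**Figure D3:**
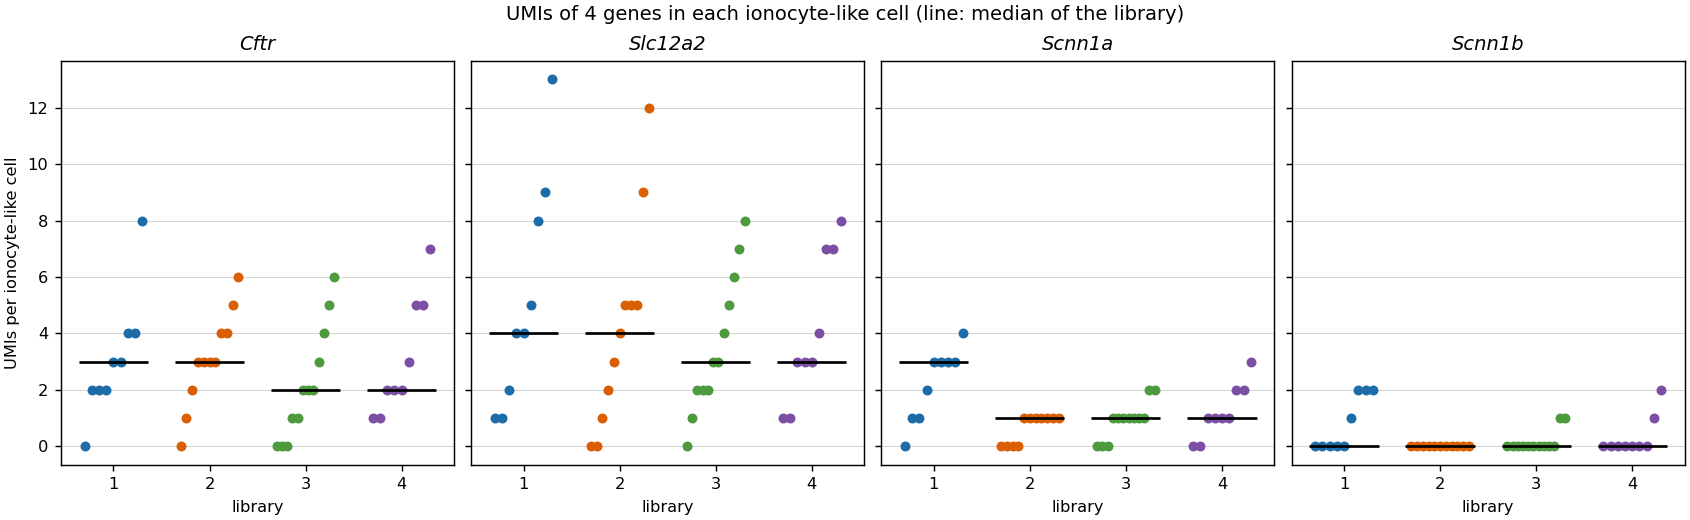
UMIs of Cftr, Slc12a2, Scnn1a and Scnn1b (vertical axis, UMIs per cell) in each of the 41 ionocyte-like cells, a point per cell, by library; the line is the median of the library. The medians over all 41 cells are 3, 4, 1 and 0, and no cell of library 2 has a Scnn1b UMI.

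Slc12a2, the cotransporter that brings in chloride, was highest in the same cells. Ionocyte-like cells had 741, 778, 1082 and 842 CPM in libraries 1 to 4, ciliated-like cells 7.41, 8.89, 11.2 and 6.61 CPM, secretory-like cells 42.0, 66.2, 62.1 and 39.3 CPM, and basal-like cells 61.2, 73.1, 71.3 and 51.4 CPM. No library of another class reached the lowest ionocyte-like value. Over all libraries the level was 839 CPM against 48.9 CPM in the other named epithelial cells, a 16.8-fold ratio with 1 CPM added. Of the 41 cells, 38 had a Slc12a2 UMI, with a median of 4 and at most 13, 33 had Cftr with it, and 25 had Cftr, Slc12a2 and Scnn1a together. Hillock-like cells followed at 168 CPM with a wide spread, 56.3, 283, 181 and 123 CPM by library. Ciliated-like cells were below secretory-like and basal-like cells in each library. Neuroendocrine-like cells, at 0 to 68.1 CPM over libraries, overlapped with them, and macrophage-like cells had 0 UMIs.

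Ano1, the calcium-activated chloride channel, had its highest levels among the named epithelial classes in proliferating-like and secretory-like cells. Ciliated-like cells had 1.54, 2.22, 3.96 and 2.14 CPM in libraries 1 to 4, secretory-like cells 23.5, 25.6, 23.7 and 23.3 CPM, and basal-like cells 9.78, 9.95, 9.63 and 15.2 CPM. The ranges of these 3 classes were apart, and the secretory-like level ranged only from 23.3 to 25.6 CPM. Proliferating-like cells had 26.1 CPM from 23 UMIs, with 24.0, 7.45, 29.9 and 32.7 CPM by library, and overlapped with secretory-like cells. Against the other named epithelial cells their log2 ratio was 0.55, which was not called. Ionocyte-like cells had 1 Ano1 UMI (4.85 CPM, interval 0.123 to 27.0), and hillock-like, neuroendocrine-like and tuft-like cells had 15, 2 and 4. Within the basal-like class the cluster led by Tpm2, Krt14 and Krt5 had 15.01 CPM, against 9.40 CPM in the resting-type cluster and 7.97 CPM in a cluster led by Hbb-bs with Sprr1a among its leading genes. Secretory-like cells held 58.1% of Ano1 UMIs.

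Slc26a9 was rare, with 214 UMIs in all, and was at its highest level in neuroendocrine-like cells, the hormone-releasing sensory cells of the airway. They had 64.3, 41.6, 63.5 and 79.4 CPM in libraries 1 to 4, from 28 UMIs in 19 of 68 cells. Ciliated-like cells had 0 to 0.932 CPM over libraries, secretory-like cells 0.680 to 1.09 CPM, and basal-like cells 1 UMI. All 10 neuroendocrine markers were detected in this class, at 6432 CPM in sum, and its secretory markers were at 13010 CPM (7661 to 19480), against 18210 CPM in basal-like cells. Its ciliated markers, 9 of 9 detected, were at 3033 CPM, with Tppp3 at 33.2% of its ciliated-like level. The level over all libraries was 63.3 CPM (42.1 to 91.5) against 0.668 CPM in the other named epithelial cells, a 38.6-fold ratio with 1 CPM added. Ionocyte-like, tuft-like and proliferating-like cells had 0 UMIs, which allowed up to 14.5, 2.81 and 3.41 CPM. Of all Slc26a9 UMIs, the rare cells with secretory RNA held the most, 37.4% (80 UMIs), followed by secretory-like cells with 28.04%, neuroendocrine-like cells with 13.1%, cells with ciliated and secretory markers together with 9.81%, hillock-like cells with 7.01% and ciliated-like cells with 3.74%.

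Cells of the neuroendocrine cluster that were set aside for their secretory RNA carried the gene as well. These 186 cells had 69 Slc26a9 UMIs in 51 cells, 19.6 CPM (15.3 to 24.8), at a median of 17568 UMIs per cell. The 196 tuft-cluster cells set aside by the same rule had 8 UMIs and 2.11 CPM (0.911 to 4.16). Hillock-like cells were next among the named classes, with 15 UMIs in 11 of 170 cells and 8.95 CPM (5.01 to 14.8); library 1, with 13 of these cells, had 0. Secretory-like cells had 1.22% of the neuroendocrine-like level of Slc26a9, while the 10 neuroendocrine markers were at 0 to 0.590% of theirs, Calca at 0.0952% and Chga at 0.00164%. In ciliated-like cells Slc26a9 was at 0.640%, above 9 of the markers and below 1, and in basal-like cells at 0.0644%, above 8 and below 2.

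The water channels divided the epithelium differently. Aqp3, a basolateral channel that also passes glycerol, was a gene of basal-like, proliferating-like and hillock-like cells. Ciliated-like cells had 3.08, 5.08, 8.86 and 9.13 CPM in libraries 1 to 4, secretory-like cells 19.9, 24.97, 35.8 and 40.0 CPM, and basal-like cells 813, 652, 694 and 827 CPM. Proliferating-like cells at 742 CPM and hillock-like cells at 707 CPM overlapped with basal-like cells, and every other class was far below. Among the 3 basal-like clusters the resting-type one had 1138 CPM (1112 to 1164), the one led by Tpm2, Krt14 and Krt5 had 672 CPM and the one with Sprr1a 524 CPM. Of the deeper secretory-like cells 23.1% had a UMI, against 84.8% of the basal-like cells, and basal-like cells held 77.9% of all Aqp3 UMIs. Ionocyte-like cells had 1 UMI (4.85 CPM, interval 0.123 to 27.0).

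Aqp4, the basolateral water channel also known from the brain, differed less than 2-fold between the large classes over summed libraries. Ciliated-like cells had 82.4, 85.4, 104 and 79.1 CPM, secretory-like cells 45.9, 37.2, 40.2 and 74.1 CPM, and basal-like cells 69.1, 68.9, 56.3 and 108 CPM. Each class in its order of levels overlapped with the next over libraries, and no comparison of the large classes passed the rule given below. The log2 ratios were 0.78 for ciliated-like over secretory-like, 0.17 for ciliated-like over basal-like and -0.61 for secretory-like over basal-like cells, and with TMM scaling the first 2 were at -0.01 and -0.02. Clusters of 1 class differed more. The resting-type basal cluster had 173 CPM (163 to 184), against 48.1 CPM in the cluster with Sprr1a and 39.4 CPM in that led by Tpm2, Krt14 and Krt5. Among ciliated-like clusters the 2 deepest had 98.1 and 95.1 CPM and the next, with a median of 1547 UMIs, 33.7 CPM. Ionocyte-like cells were lowest, with 1 UMI and 4.85 CPM.

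Aqp5, the apical water channel of glands and airway secretory cells, was shared by secretory-like and basal-like cells and was far higher in hillock-like cells, the squamous-like cells with Krt13 and Krt4. Hillock-like cells had 10680, 5820, 5527 and 6965 CPM in libraries 1 to 4, ciliated-like cells 88.5, 72.1, 82.5 and 169 CPM, secretory-like cells 460, 400.0, 546 and 918 CPM, and basal-like cells 452, 377, 532 and 778 CPM. Every one of the 170 hillock-like cells had a UMI, with a median of 49.5, and 97.7% kept one at 1000 UMIs per cell, against 40.0% of secretory-like and 32.7% of basal-like cells. The level was 6472 CPM against 500.5 CPM in the other named epithelial cells, a 12.9-fold ratio with 1 CPM added. Hillock-like cells, 0.873% of all cells, held 12.3% of Aqp5 UMIs. Ionocyte-like cells had 2 UMIs and 9.70 CPM (1.17 to 35.0), below every library of the ciliated-like class.

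Aqp5 also moved with Krt13 inside the neighbouring classes, with Krt13 UMIs of the single cell as the measure. In secretory-like cells it was at 574 CPM with 0 Krt13 UMIs (5841 cells), 845 CPM with 1 to 4 (247 cells) and 1364 CPM with 5 or more (29 cells). The basal-like values in the same order were 466, 694 and 1898 CPM, from 4531, 390 and 129 cells. In basal-like cells the highest bin was above the other bins in all 4 libraries (1945, 1615, 2216 and 1759 CPM), and in secretory-like cells the order held in libraries 2, 3 and 4, while library 1 had 439, 802 and 512 CPM. Median depth rose along the bins too, 3916, 5286 and 7558 UMIs in basal-like cells, and its part was not tested. Slc12a2 did not follow: basal-like cells with 5 or more Krt13 UMIs had 30.1 CPM (20.8 to 42.0), below the 64.1 CPM (60.7 to 67.6) of those with 0.

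**Figure D4:**
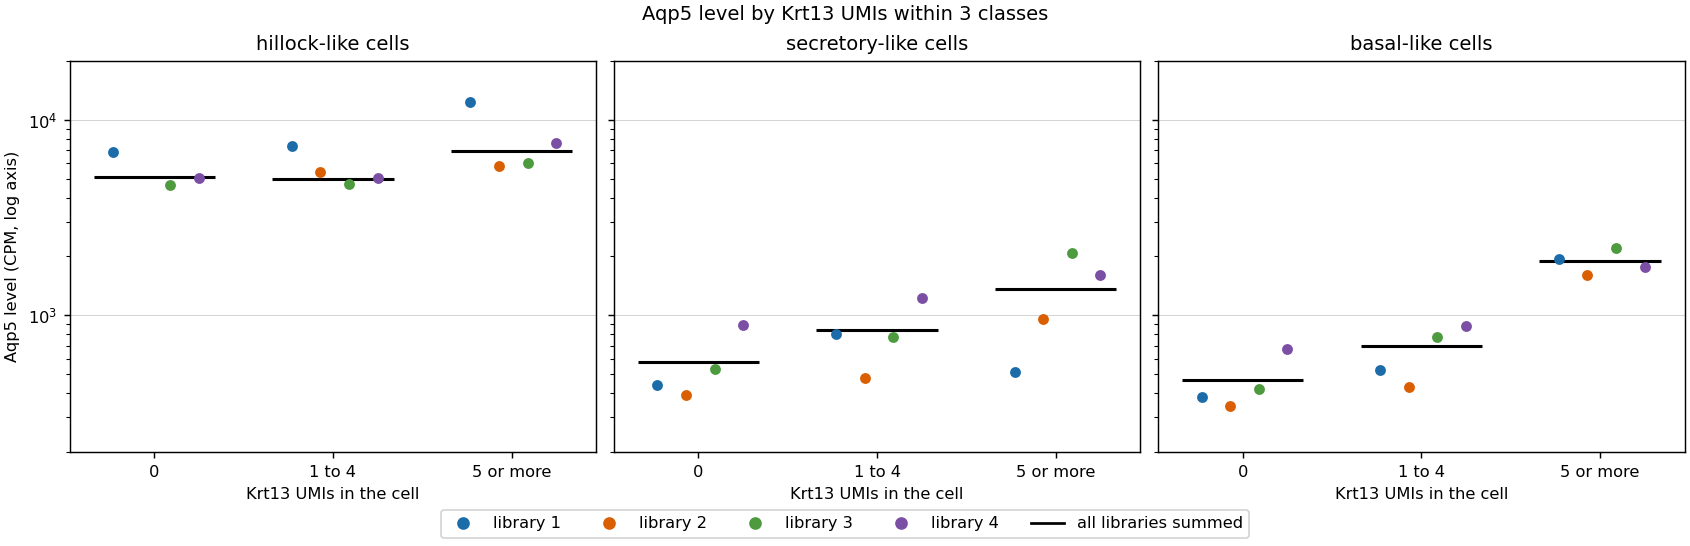
Aqp5 level (CPM, log axis) by the number of Krt13 UMIs in the cell, within hillock-like, secretory-like and basal-like cells; points are libraries and lines the level over all libraries summed, and library 2 has no hillock-like cell with 0 Krt13 UMIs. Basal-like cells with 5 or more Krt13 UMIs reach 1898 CPM, still below the 6472 CPM of hillock-like cells.

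Classes were then compared for all genes with at least 50 UMIs in both classes together, and a gene was called when it differed at least 2-fold in the same direction in each of the 4 libraries, with 1 CPM added. For ciliated-like over secretory-like cells, 9 of the 10 genes could be tested. None was called higher, against 28.9% of the 12004 genes tested, and 4 were called lower (Ano1, Slc12a2, Aqp3 and Aqp5), against 3.07%. The log2 ratios of these 4 were -2.90, -2.52, -2.14 and -2.48. For ciliated-like over basal-like cells, 7 genes were tested: Scnn1a was called higher, at a log2 ratio of 1.30, against 21.1% of 11800 genes, and Ano1, Slc12a2, Aqp3 and Aqp5 were called lower, at -1.89, -2.81, -6.69 and -2.39, against 9.97%. The Ano1 call was lost when shallow ciliated-like clusters were left out, where the ratio was -1.81, and when the members were allowed among the variable genes (-1.83), and both the Ano1 and the Scnn1a calls were lost with 5 CPM added, at -1.16 and 1.21. The Scnn1a call was also lost with coarser clusters (0.80), with finer ones (1.27) and with the mean over cells of each cell's CPM (1.04).

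For secretory-like over basal-like cells, 9 genes were tested. Scnn1b was called higher, at 1.60, against 2.15% of 11659 genes, a call lost with 5 CPM added (0.50) and with every cell thinned to 1000 UMIs (1.21), and Aqp3 lower, at -4.56, against 15.3%. Ano1 was at 1.01, from 0.59 to 1.28 over libraries, and was not called. It was called at 1.22 without library 4. The median log2 ratio over all tested genes was -0.49 here, 0.75 for ciliated-like over secretory-like and 0.26 for ciliated-like over basal-like cells, while secretory markers took 392900 CPM in secretory-like cells.

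These comparisons were also tested in a way chosen after the data were seen, with edgeR's quasi-likelihood test on UMIs summed by class and library, the library as a block and TMM scaling. The p-values rest on a spread over 4 libraries that was estimated with information shared across genes. A small p-value therefore does not show that the libraries agreed for that gene. The libraries differ in genotype, and the classes had been clustered from the same cells, though without the 10 genes. A gene was called at a Benjamini-Hochberg adjusted p under 0.05 and at least 2-fold. TMM scaling moved the median log2 fold change of all genes to -0.02 for ciliated-like over secretory-like, 0.02 for ciliated-like over basal-like and 0.03 for secretory-like over basal-like cells. For ciliated-like over secretory-like cells 7 of 9 genes were lower, against 16.5% of all genes, and 0 higher, against 21.4%; all 9 edgeR fold changes were below 0. Scnn1b, Cftr and Slc26a9 joined the 4 genes above, at -5.93, -1.78 and -1.71, and their largest edgeR adjusted p was 0.0209, that of Slc26a9. For ciliated-like over basal-like cells the same 5 calls were made, Scnn1a at 1.01 (edgeR adjusted p = 2.12e-06) and Ano1 at -2.47 (1.91e-06), against 25.9% higher and 20.7% lower over all genes. For secretory-like over basal-like cells 5 genes were higher, against 11.3%: Scnn1a at 1.33, Scnn1b at 5.92, Cftr at 1.13, Ano1 at 1.71 and Slc26a9 at 4.47. Aqp3 was lower at -4.04, against 12.0%. Their largest edgeR adjusted p was 0.000192. Scnn1b and Slc26a9 had 1 UMI each in basal-like cells, as Scnn1b had in ciliated-like cells, so the size of these fold changes depends on the added prior count.

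Rare classes were too small for a rule by library. A gene was called there when its level over summed libraries differed at least 2-fold from the other named epithelial cells and the 95% Poisson intervals did not overlap. Ionocyte-like cells had 4 of 9 tested genes higher (Scnn1a, Scnn1b, Cftr and Slc12a2), against 13.2% of 12699 genes, and 3 lower (Aqp3, Aqp4 and Aqp5), against 3.58%. The log2 ratios were 2.06, 4.65, 6.40 and 4.07 for the higher genes and -4.96, -3.39 and -5.77 for the lower ones. Only Scnn1b lacked the direction in a library, with 0 UMIs in library 2. The lower genes rest on 1 or 2 UMIs each, and their ratios depend on the CPM added. With every cell thinned to 1000 UMIs, 3 genes were higher and 2 lower, and the Scnn1b (4.08) and Aqp4 (-1.39) calls were lost. Over the 110 cells with UMIs of at least 3 ionocyte markers, 4 were higher and 1 lower: Aqp4 was at 0.25, the other way, and the Aqp5 call was lost at -0.91. In the edgeR test blocked by library the same 7 genes were called, against 2.26% of genes higher and 8.27% lower, with Scnn1a at a log2 fold change of 1.17 (adjusted p = 0.000433), Cftr at 5.73 and Slc12a2 at 3.23. TMM scaling moved the median over all genes to -0.80 there, against 0.09 by CPM. Hillock-like cells had 4 higher (Slc26a9, Slc12a2, Aqp3 and Aqp5, at 2.48, 1.77, 2.02 and 3.69), against 8.90% of genes, and 1 lower (Cftr at -1.81, from 2 UMIs or 1.19 CPM with an interval of 0.145 to 4.31), against 8.52%. Slc26a9 lacked the direction in library 1.

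Neuroendocrine-like cells had 1 higher, Slc26a9 at 5.27, against 26.0% of genes, and 4 lower, against 2.20%: Ano1, Slc12a2, Aqp3 and Aqp5. Ano1 and Slc12a2 were not lower in each library. Tuft-like cells, the chemosensory cells, had 0 higher, against 29.4%, and 5 lower, against 3.91%: Cftr, Ano1, Aqp3, Aqp4 and Aqp5, at -1.98, -1.98, -1.60, -1.45 and -1.85. Aqp5 was not lower in library 2. Proliferating-like cells had 1 higher, Aqp3 at 2.07, against 15.4%, and 2 lower, Scnn1a at -2.89 and Aqp4 at -1.52, against 6.72%. These classes were compared with a pool made mostly of secretory-like UMIs, and the background shares differed widely between them. The gate on secretory RNA had taken out 196 of 391 tuft-cluster, 186 of 254 neuroendocrine-cluster and 53 of 149 proliferating-cluster cells. In the tuft-cluster cells taken out, Cftr, Ano1, Aqp3, Aqp4 and Aqp5 were at 5.80, 20.6, 26.4, 52.0 and 302 CPM. In the neuroendocrine-cluster ones Ano1, Slc12a2, Aqp3 and Aqp5 were at 17.35, 52.6, 21.9 and 381 CPM. The part of the gate in the lower calls was not tested. The edgeR test blocked by library called each gene named above for these classes and the hillock-like cells, and 1 more in 3 of them. Hillock-like cells had 4 higher, against 5.23% of genes, and 2 lower, against 10.7%, with Ano1 added at -1.34 (edgeR adjusted p = 0.0028). Neuroendocrine-like cells had 1 higher, against 4.69%, and 5 lower, against 8.02%, with Aqp4 added at -1.47 (edgeR adjusted p = 0.000175). Tuft-like cells had 0 higher, against 10.1%, and 5 lower, against 11.1%; at an unadjusted p under 0.05 none of the 9 was higher either. Proliferating-like cells had 1 higher, against 5.19%, and 3 lower, against 12.0%, with Aqp5 added at -1.27 (edgeR adjusted p = 8.86e-14). That gene was not lower in library 2, where its CPM-based log2 ratio was 1.34.

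The wider apparatus was read from a list of 69 transport genes, all measured: proteases that activate the sodium channel, pumps and exchangers, potassium and further chloride channels, kinases and receptors. In ionocyte-like cells 22 of 55 tested genes were called higher (40.0%, against 13.2% of all genes) and 3 lower (5.45%, against 3.58%), with a median log2 ratio of 0.64 against 0.09 over all genes. The highest was Kcnma1, the large-conductance potassium channel, with 61 UMIs and 296 CPM against 0.349 CPM elsewhere (log2 ratio 7.78, from 7.27 to 8.20 over libraries). Slc9a2, a sodium-proton exchanger, and Atp6v1b1, a subunit of the vacuolar proton pump, followed at 3.64 and 3.0, from 6 and 16 UMIs, and each lacked the direction in some library. Called lower were Clca1, a secreted goblet-cell protein, at 0 UMIs, Lrrc26, a potassium channel subunit, at -2.68, and Fxyd3, a regulator of the sodium pump, at -1.57.

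In ciliated-like cells 9 of 51 genes of the list were called higher than in secretory-like cells (17.6%, against 28.9% of all genes) and 5 lower (9.80%, against 3.07%), with a median of 0.27 against 0.75 over all genes. The highest were Aqp2, a water channel best known from the kidney, at 3.13, the protease gene Tmprss4 at 2.14 and Slc9a3r1, a scaffold that binds CFTR, at 2.10. Aqp2 had 193 UMIs, 9.78 CPM, in ciliated-like cells and 18 UMIs, 0.232 CPM, in secretory-like cells. The lowest were Clca1 at -3.59, the potassium channel gene Kcnk1 at -2.06 and the bicarbonate cotransporter gene Slc4a4 at -1.77. Against basal-like cells 8 of 48 were higher (16.7%, against 21.1%), led by Tmprss4 at 3.39, Aqp2 at 3.21 and Slc12a7, a potassium-chloride cotransporter, at 2.79, and 8 were lower (16.7%, against 9.97%), led by Slc12a4 at -3.69, Clca2 at -2.74 and Kcnk1 at -2.56 (median 0.23, all genes 0.26). For secretory-like over basal-like cells 6 of 51 were higher (11.8%, against 2.15%), with Clca1 at 4.32, the potassium channel gene Kcnq1 at 2.49 and Atp6v1b1 at 1.95, and 8 lower (15.7%, against 15.3%), with Clca2 at -2.87, Slc12a4 at -2.41 and Sgk1, a kinase that raises sodium channel activity, at -2.10 (median -0.16, all genes -0.49).

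In hillock-like cells 11 of 55 genes of the list were higher (against 8.90% of all genes) and 4 lower (7.27%, against 8.52%), led by the kinase gene Stk39 at 2.44, Tmprss4 at 2.33 and Ano9 at 1.77, with Atp6v1b1 at -1.85, Trpv4 at -1.56 and Ano6 at -1.16 at the low end (median 0.16, all genes 0.08). Neuroendocrine-like cells had 6 higher (10.9%, against 26.0%), among them Tmprss4 at 2.17 and Nr3c2, the mineralocorticoid receptor, at 2.09, and 2 lower (3.64%, against 2.20%), Clca1 and Lrrc26 (median 0.32, all genes 0.65). Tuft-like cells had 11 of 55 higher (against 29.4%), led by Ano7, a relative of Ano1, at 5.91, Kcnq1 at 2.57 and Ano10 at 2.51, and 6 lower (10.9%, against 3.91%), with Clca1, Atp6v1b1 and Adora2b at 0 UMIs (median 0.18, all genes 0.58). Ano7 had 71 UMIs in tuft-like cells, 66.5 CPM, against 0.120 CPM elsewhere. Proliferating-like cells had 5 higher (9.09%, against 15.4%), led by Clca2 at 2.31, Kcnn4 at 1.63 and Slc12a4 at 1.59, and 7 lower (12.7%, against 6.72%), led by Clca1 at -3.56, Kcnq1 with 0 UMIs and Lrrc26 at -2.47 (median -0.13, all genes 0.31). In ciliated-like, neuroendocrine-like, tuft-like and proliferating-like cells the share of the list called higher was below that of all genes.

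Within a class, libraries were set side by side for genes with at least 100 UMIs, and a gene was counted as apart when the highest and lowest libraries differed at least 2-fold with intervals that did not overlap. In ciliated-like cells 2 genes were apart, against 6.37% of 9316 genes, namely Aqp3 (2.97) and Aqp5 (2.34). In secretory-like cells Cftr (2.23), Aqp3 (2.01) and Aqp5 (2.29) were apart, against 9.89% of 10013 genes. In basal-like cells Cftr (3.71) and Aqp5 (2.07) were apart, against 8.97% of 8782 genes. Scnn1g and Slc26a9 had too few UMIs to be tested in any of the 3 classes. Scnn1b was also untested in ciliated-like and basal-like cells, and Cftr and Ano1 were untested in ciliated-like cells. Library 4 had the highest Aqp5 in all 3 classes and library 2 the lowest, and Cftr of secretory-like and basal-like cells ran the other way, highest in library 2 and lowest in library 4. Cftr of the ionocyte-like cells did not: 575 CPM in library 2 and 638 CPM in library 4. Library, genotype, pooled mice and preparation cannot be told apart here.

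**Figure D5:**
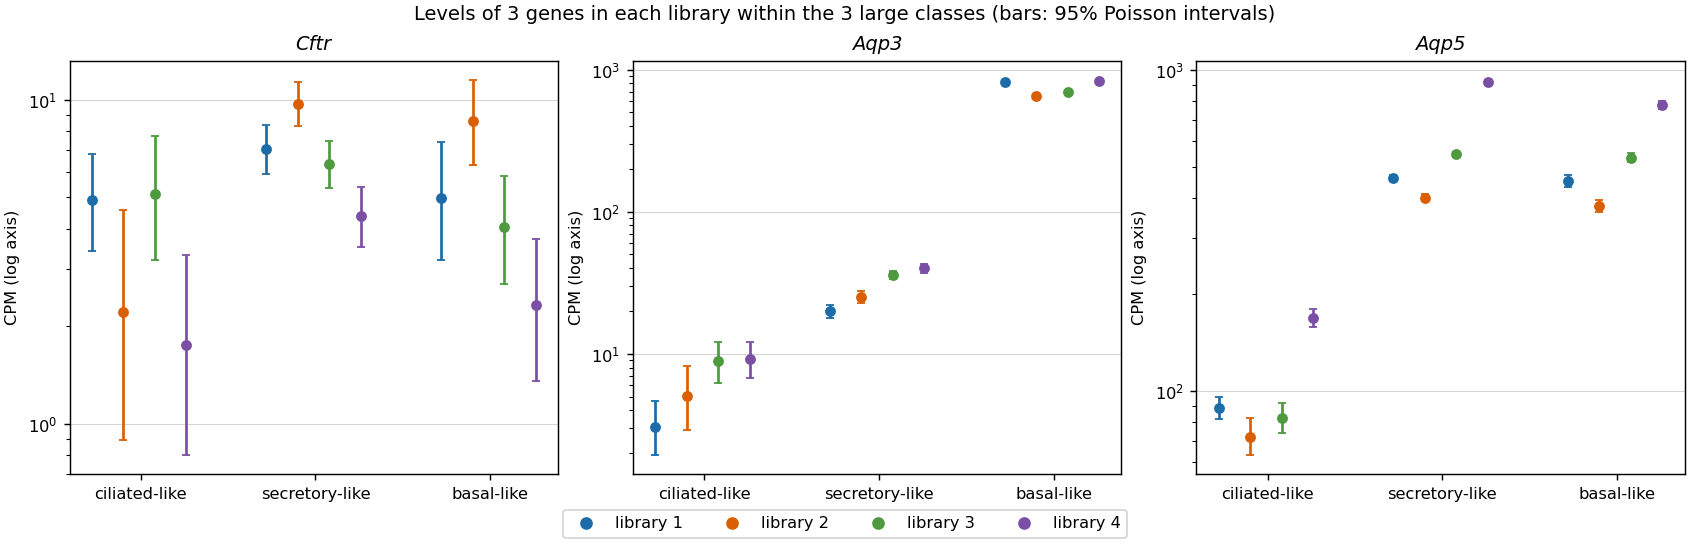
Level (CPM, log axis) of Cftr, Aqp3 and Aqp5 in ciliated-like, secretory-like and basal-like cells of each library; points are libraries 1 to 4 and bars 95% Poisson intervals, which cover counting error only. Aqp5 is highest in library 4 in all 3 classes, at 169, 918 and 778 CPM.

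The genes whose levels followed each member most closely over 11 classes were found by Pearson correlation of log2(CPM + 1), with libraries summed, among genes with at least 100 UMIs and without the members. The classes share libraries and differ in depth, so the values describe a pattern and no more. For Scnn1b these were Smbd1, Coch and Umod (r = 0.980, 0.978 and 0.967), and Coch was also an ionocyte marker used to name the class. For Cftr they were Gpr3, Garnl3 and Atp6v1b1 (0.965, 0.962 and 0.947), for Slc12a2 Dpysl3, Tceal9 and Atf5 (0.918, 0.906 and 0.898), and for Scnn1a Dusp3, Ccdc120 and Zfp629 (0.990, 0.984 and 0.982). In ionocyte-like cells, their highest class, Gpr3 and Garnl3 were at 19.4 CPM each and Zfp629 at 14.55 CPM. These levels rest on few UMIs, since 3 UMIs are 14.5 CPM there. Slc26a9 was followed by Stxbp5l, Arg1 and Galnt5 (0.916, 0.913 and 0.901), and Ano1 by Trib3, Sar1a and Tbrg4 (0.932, 0.930 and 0.927). Aqp3 went with Ifi202b, Ccdc71l and the basal marker Krt15 (0.969, 0.953 and 0.892), Aqp4 with Gsta3, Gss and Fam177a (0.973, 0.942 and 0.921), and Aqp5 with Trex2, Ankrd22 and Gsta4 (0.922, 0.913 and 0.901). For Scnn1g, with 39 UMIs, no likeness is given. Among the members, Scnn1b and Cftr were most alike, with r = 0.924. Both were highest in ionocyte-like cells, where Scnn1b had 12 UMIs.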

How the data were processed

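Single-cell libraries had been made with the 10x 3′ v3.1 kit. The deposited matrix held whole-number UMI counts, not normalized, for 22583 features and 21667 barcodes, made with Cell Ranger 6.0.1 per the file headers and on GRCm39 per the submitters' processing notes; the annotation release is not given in the sources used here. Every barcode carried a library number, and no column of an unknown sample was used.

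Barcodes with at least 500 UMIs, 300 genes and at most 20% mitochondrial UMIs were kept. The automatic Scrublet threshold marked 9 cells, so the highest-scoring cells were removed at 0.8% per 1000 cells, 888 in all. Cells were clustered in scanpy 1.11.5 (2000 variable genes without the members, 30 principal components, 15 neighbours, Leiden resolution 1) on python 3.11.15. Clusters were named from marker lists; the naming rule and the removal of rare cells with at least 5% secretory-marker UMIs were set after the data were seen. The members and gene lists were chosen with earlier results of these data known.

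Levels are summed counts scaled to 1000000 (CPM) with 95% Poisson intervals and shares have Clopper-Pearson intervals, both for counting error only. Library and genotype could not be matched, so genotypes were not tested. Ratios have 1 CPM added. Genes with at least 50 UMIs over both classes were called at a fold of 2. As an alternative chosen after the data were seen, edgeR 4.0.16 tested the summed counts of class and library with the library as a block, since each library holds both classes. Genes named from the wider list were the 3 highest and 3 lowest called in each comparison (1 such gene is not reported here), and like genes the 3 highest by correlation. Alternatives were other clusterings, doublet and mitochondrial limits, thinning to 1000 UMIs, an added 5 CPM, the mean over cells, and leaving out each library. The calling rules were tested on simulated data.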

Additional observations from a re-analysis of the deposited data

Results flagged for a closer look

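Barcodes of 2 kinds outside the ionocyte-like class carried Cftr. Among used cells of other classes, 69 had UMIs of at least 3 ionocyte markers, and Cftr was at 65.3 CPM in them (53.0 to 79.7, 97 UMIs), against 5.69 CPM in named epithelial cells outside the ionocyte-like class. Their median depth was 19551 UMIs, and secretory markers took a median of 24.0% of their UMIs. Of the 69 cells, 32 were secretory-like, 25 carried ciliated and secretory markers together, 7 were rare cells with secretory RNA and 5 were ciliated-like. Among the cells removed as doublets, 10 had at least 3 ionocyte markers, with 4 Cftr UMIs and 23.8 CPM (6.48 to 60.9), against 5.60 CPM in all 888 removed cells. Whether these barcodes hold more than 1 cell was not tested.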

How the results depend on the processing

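Of the counts and shares given above, 74 values changed by at most 1.5-fold under the alternatives and 8 changed by more. Genes called for secretory-like over basal-like cells numbered 2, 6 in the edgeR test with library as replicate block, and 1 with every cell thinned to 1000 UMIs and 1 with 5 CPM added. For ciliated-like over secretory-like cells 4 were called, and 7 in the blocked test. Within the 1.5-fold limit, that count was 6 with coarser clusters and 6 with the mean over cells. It was 5 with the members allowed among the variable genes, at 10% mitochondrial UMIs and without library 2. For ciliated-like over basal-like cells 5 were called, and 3 with 5 CPM added. The ionocyte-like share of Cftr UMIs was 10.2%, 21.6% after thinning and 18.7% over cells with at least 3 ionocyte markers; it ranged from 9.22 to 10.8% without 1 library. At a limit of 10% mitochondrial UMIs the class took 143 cells and 9.26% of Cftr UMIs. Pairs of gene and class apart between libraries numbered 7, all of them of Cftr, Aqp3 or Aqp5, and 11 at a ratio of 1.5. Among single genes, 269 values stayed, 12 lost and 16 gained a call, and 1 reversed: Aqp4 in ionocyte-like cells was at a log2 ratio of -3.39, and at 0.25 over cells with at least 3 ionocyte markers. In those cells Aqp5 was at -0.91. The cause was not tested. Ano1 was called for secretory-like over basal-like cells without library 4, at 1.22. Depth limits Scnn1g, with 39 UMIs, and every gene with few UMIs in ionocyte-like cells, where 3 UMIs are 14.5 CPM. The blocked test called the same number of genes, 5 and 7, for ciliated-like over basal-like and for ionocyte-like cells, and TMM scaling turned Scnn1a of ciliated-like over secretory-like cells to -0.32, against 0.60 by CPM.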

Other observations

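Outside the named classes, Cftr was at 6.90 CPM in the cells with ciliated and secretory markers together, 7.38 CPM in the rare cells with secretory RNA and 4.15 CPM (5 UMIs) in the 1308 barcodes removed by the filters. Slc12a2 was at 210.0 CPM (156 to 276) in the shallow unnamed cluster of 343 cells, mostly from library 1, and Ano1 was at 57.7 CPM (31.5 to 96.7) there, each from few UMIs.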
